A study of Sus scrofa with 13 samples.

Results

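Interferon-stimulated genes are the genes that cells switch on when they sense interferon, the secreted signal of viral infection and of nucleic acid in the wrong place. Interferons bind receptors that activate the kinases JAK1 and TYK2, these activate STAT factors, and STAT2 joins IRF9 in a complex that binds the promoters of antiviral genes. Interferon gamma acts in part through IRF1, and is known for inducing guanylate-binding proteins and antigen presentation genes. In heart muscle this response is known from viral myocarditis and from the period after infarction.

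The set held 36 genes chosen by symbol for their known induction by interferon, and a probe set of the array belonged to a gene where the platform annotation gave that symbol alone. A probe set is the group of probes that reads 1 transcript, and where a gene had several, the one with the highest mean log2 intensity over all animals was used. Of the 36 genes, 23 had a probe set of their own, out of 6765 named genes on the array, and 21 lay above the filter level and were tested, out of 5196 genes tested. ISG20, an exonuclease, and IRF7, a factor that amplifies interferon production, lay under the filter level, with mean log2 intensities of 2.35 and 2.86. IFITM3 was named in the platform annotation only together with at least 1 other symbol and was not used. No probe set carried the symbols IFI6, IFI44, IFIT5, IFITM1, OAS2, OASL, BST2, IFIH1, TRIM21, TRIM25, UBA7 or HERC5.

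RNA came from myocardial drill biopsies of 13 female Sinclair miniswine, a small pig breed, aged 3 months when diagonal branches of the LAD coronary artery were tied off for good. In 7 animals 50000000 stem cells, called MPCs in the labels, were injected in 2 ml saline at 5 border zone sites, and 6 animals received 2 ml saline alone in 5 injections. All were infarcted and were sampled at month 4, so no heart without an infarct is among them, and the labels do not say where each biopsy lay or whether stem cell progeny remained in it. Each animal gave 1 array of GCRMA intensities, and levels are given as log2 intensity and differences as stem cells minus saline, also on the log2 scale. Precision is set by how many arrays there were.

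Median linear intensities per array lay between 13.4 and 13.9. The 11 measured cardiomyocyte markers averaged a log2 intensity of 13.09 to 13.62 in stem cell animals and 13.30 to 13.80 in saline animals, and 11 of the 13 markers listed were found. The markers differed in spread, and NPPB weighs on the range of the mean. It ran from 7.10 to 13.19 in stem cell animals and from 10.42 to 13.73 in saline animals. MYH7 ran from 14.56 to 14.84 in stem cell animals and from 14.46 to 14.72 in saline animals. In tissue RNA, fewer cells of a type and less RNA per cell cannot be told apart. No batch or scan date was given, and no value within batches could be had.

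One animal stood apart for these genes. Stem cells replicate 5 had the highest value of all 13 animals in 12 of the 21 genes tested (57.1%), against 6.5% of all 14399 probe sets tested. It lay more than 1 log2 unit above the median of the 13 animals in 11 of the 21 genes (52.4%), against 1.74% of all probe sets. Results are therefore given with and without it. Its 3' to 5' ratios of the control probe sets, which rise as RNA degrades, were the lowest of the 13 for GAPDH (0.024 log2 units), actin (1.61) and EF1A (0.71), and the part of RNA quality in the result was not tested.

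**Figure D1:**
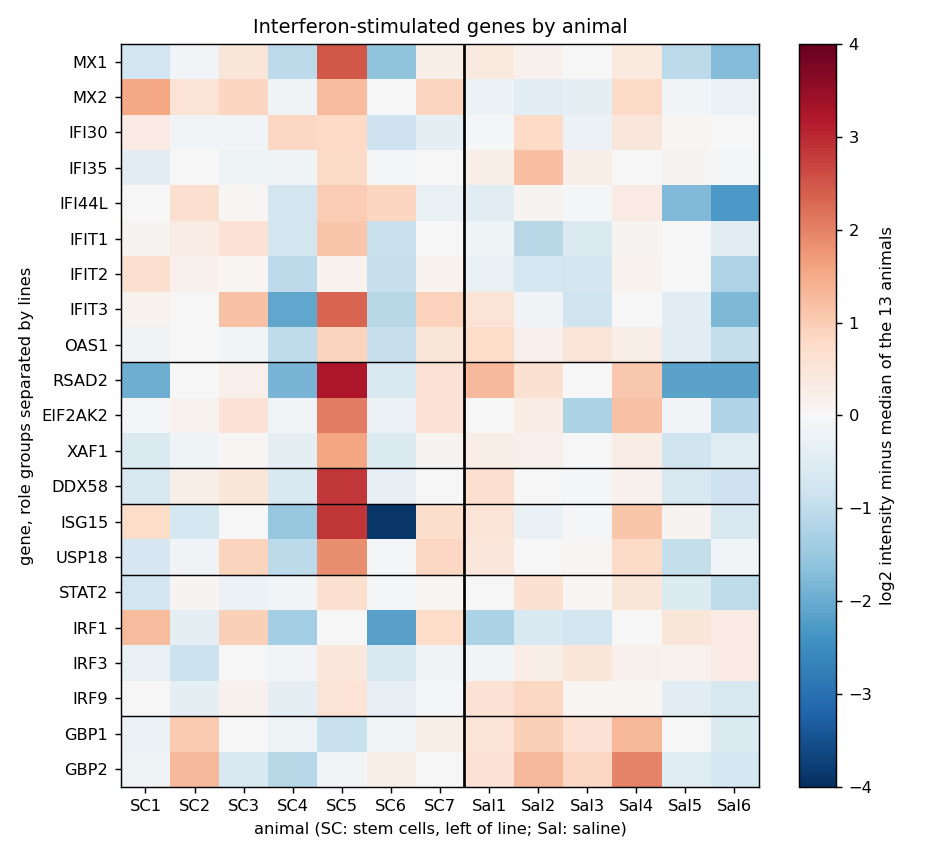
Colour gives the log2 intensity of each tested gene (rows, role groups separated by lines) in each animal (columns; SC, stem cells; Sal, saline) minus the median of the 13 animals. Stem cells replicate 5 is the highest in 12 of 21 genes, against 6.5% of all probe sets tested, while GBP1 is at its lowest there. Saline replicate 6 is the lowest animal in 6 of the 21 genes, against 14.2% of all probe sets tested.

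The comparison asked whether interferon-stimulated genes differed between infarcted hearts given stem cells and those given saline, 4 months on. With all animals, 13 of the 21 genes had a positive difference (61.9%, against 52.8% of all probe sets) and the median difference was 0.16, against 0.017 over all probe sets tested. None passed at an adjusted p of 0.05 (limma, Benjamini-Hochberg over all probe sets, smallest adjusted p among the genes 0.414), as 0 of 14399 probe sets did (0%). At an unadjusted p under 0.05 there were 3 of 21 genes (14.3%), against 10.5% of all probe sets. Of the 3, MX2 and IFI44L were higher (5.4% of probe sets in that direction) and IRF3 was lower (5.15%). The 2 groups overlapped in all 21 genes, while 0.278% of all probe sets did not overlap, 0.118% with stem cell animals higher and 0.16% with them lower.

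The direction of the list rested on single animals. Without stem cells replicate 5, 7 of 21 differences were positive and the median was -0.16. Without saline replicate 5 the median was -0.044 with 10 positive, and without saline replicate 6 it was -0.024 with 10 positive. With each of the other 10 animals left out it lay above 0, at up to 0.36 without stem cells replicate 4.

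**Figure D2:**
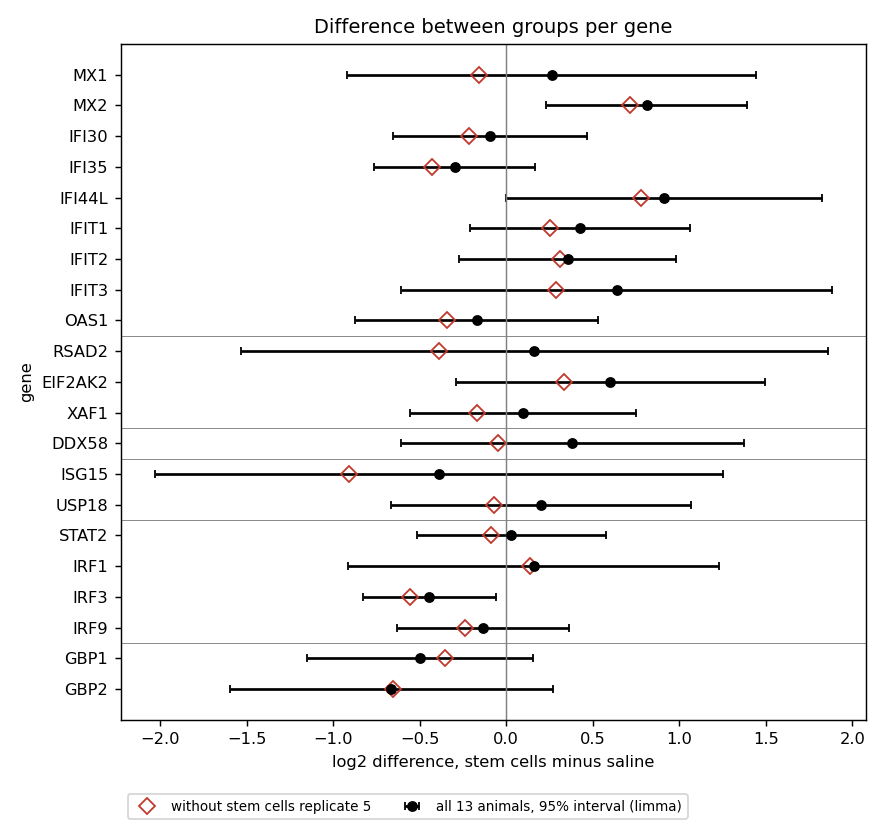
Filled points give the log2 difference, stem cells minus saline, of each tested gene with its 95% interval (limma, 7 and 6 animals), and open diamonds the value without stem cells replicate 5. The intervals of MX2 and IFI44L lie above 0 and that of IRF3 below it, all before adjustment, and MX1, RSAD2, XAF1, DDX58, USP18 and STAT2 turn negative when that animal is left out.

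The MX proteins are dynamin-like GTPases that trap viral nucleocapsids, and in the pig assembly Sscrofa11.1 their genes lie side by side, with 0 protein-coding genes between them. MX2 had the smallest p of the set. Its log2 intensity had a lowest, median and highest value of 4.04, 5.05 and 5.72 in stem cell animals, against 3.73, 3.96 and 4.94 in saline animals. Of the stem cell animals 4 lay above every saline animal, and 1 lay below the saline mean. The difference was 0.81 ± 0.27 (SE), unadjusted p of 0.00932 and adjusted p of 0.414 (limma), and an exact permutation test over all 1716 splits of the animals gave a two-sided p of 0.0239. With 1 animal left out it lay between 0.67 and 0.98, and at 0.72 without stem cells replicate 5. A second MX2 probe set, at a mean of 2.18, lay under the filter level and had a difference of 0.016.

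MX1 had the wider spread of the pair, with a within-group SD of 1.15 against 0.54 for MX2. It had a lowest, median and highest log2 intensity of 6.12, 7.62 and 10.19 in stem cell animals, against 5.98, 7.81 and 8.12 in saline animals. The highest value, that of stem cells replicate 5, was 2.47 above the median of all animals, while the other stem cell animals covered about the range of the saline animals. The difference was 0.26 ± 0.56 (SE), with a 95% interval from -0.92 to 1.44 and an adjusted p of 0.883 (limma). It was -0.16 without that animal.

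IFI44L, an interferon-induced protein of uncertain function, had the largest positive difference. Its log2 intensity was 6.73, 7.48 and 8.47 at the lowest, median and highest in stem cell animals, against 5.16, 7.18 and 7.79 in saline animals. The saline group held the 2 lowest animals of the study for it, replicates 5 and 6. The difference was 0.91 ± 0.43 (SE), unadjusted p of 0.0498, adjusted p of 0.473 (limma) and exact permutation p of 0.0886. Leaving out saline replicate 6 gave 0.59, leaving out stem cells replicate 5 gave 0.78, and a second probe set of the gene gave 0.61 ± 0.38.

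The IFIT proteins bind viral RNA ends and block its translation, and the 3 genes measured are neighbours. IFIT1 was at 9.85, 10.85 and 11.86 (lowest, median, highest) in stem cell animals, against 9.63, 10.46 and 10.85 in saline animals. The highest saline animal was passed by 4 stem cell animals, and the lowest stem cell animal lay within the saline range. The difference was 0.43 ± 0.30 (SE), adjusted p of 0.615 (limma), and 0.25 without stem cells replicate 5, while the other 2 probe sets of the gene gave 0.32 and 0.29.

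IFIT2 had a difference of 0.35 ± 0.29 (SE), and 0.31 without stem cells replicate 5. Its probe sets disagreed, with values of 0.52 ± 0.25 and -0.048 ± 0.24 in the other 2. IFIT3 ranged from 4.46 to 8.87 in stem cell animals and from 4.74 to 7.09 in saline animals. Its difference was 0.64 ± 0.58 (SE), and 0.29 without stem cells replicate 5.

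The other IFI and OAS genes had differences at or below 0. OAS1, which makes the messenger that activates RNase L, had a lowest, median and highest log2 intensity of 8.44, 9.33 and 10.36 in stem cell animals, against 8.49, 9.68 and 10.19 in saline animals. The groups covered nearly the same range, and the difference was -0.17 ± 0.33 (SE). With 1 animal left out it lay between -0.37, when that was saline replicate 6, and -0.022, when it was stem cells replicate 4. Leaving out stem cells replicate 5 gave -0.34. IFI35, a regulator of inflammatory signalling, stood at 3.97, 4.35 and 5.19 in stem cell animals, against 4.34, 4.59 and 5.61 in saline animals. Its difference was -0.30 ± 0.22 (SE), and -0.43 without stem cells replicate 5. IFI30, a lysosomal thiol reductase of antigen processing, was at -0.09 ± 0.26, and at -0.21 without that animal. Over the 9 MX, IFI, IFIT and OAS genes measured, 6 differences were positive (66.7%, against 52.8% of all probe sets). The median was 0.35, against 0.017 over all probe sets, and 0 passed the adjusted threshold. Of the 6, MX1 turned negative without stem cells replicate 5.

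Further effectors measured were 3. RSAD2, or viperin, makes a nucleotide that stops viral polymerases, and it had the widest spread in the set, with a within-group SD of 1.67 against a median of 0.32 over all probe sets tested. It had a lowest, median and highest log2 intensity of 4.91, 6.85 and 10.08 in stem cell animals, against 4.69, 7.14 and 8.13 in saline animals. Both groups held animals at the bottom of the range, and the top value was that of stem cells replicate 5. The difference was 0.16 ± 0.80 (SE), and -0.39 without that animal. The array carries 3 control-named probe sets along the RSAD2 transcript, left out of the test, and stem cells replicate 5 read 9.56 at the 3' end, 8.10 in the middle and 5.04 at the 5' end. Their means over all animals were 6.12, 4.53 and 3.49.

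EIF2AK2, the kinase PKR that halts translation on double-stranded RNA, had values of 6.83, 7.21 and 9.11 (lowest, median, highest) in stem cell animals, against 5.80, 7.02 and 8.26 in saline animals. The saline mean was passed by 6 of the stem cell animals. The difference was 0.60 ± 0.42 (SE), adjusted p of 0.613 (limma), and 0.33 without stem cells replicate 5. XAF1, a pro-apoptotic factor, was at 3.60, 4.01 and 5.77 in stem cell animals, against 3.39, 4.29 and 4.46 in saline animals. Its difference was 0.10 ± 0.31 (SE), and -0.17 without that animal.

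The only RNA sensor measured was DDX58, or RIG-I, which detects viral RNA with free 5' ends. Its log2 intensity was 4.32, 4.97 and 7.81 at the lowest, median and highest in stem cell animals, against 4.15, 4.95 and 5.64 in saline animals. The medians nearly coincided and 1 stem cell animal lay above the saline range. The difference was 0.38 ± 0.47 (SE), and -0.045 without stem cells replicate 5. In its second probe set that animal read 5.80, against a mean over all animals of 4.10.

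ISG15 is a ubiquitin-like protein that is attached to other proteins, and USP18 removes it and also restrains the interferon receptor. ISG15 had a lowest, median and highest log2 intensity of 3.98, 7.88 and 10.73 in stem cell animals, against 7.24, 7.90 and 9.003 in saline animals. The stem cell group thus held both the lowest animal, replicate 6, and the highest, replicate 5, and its SD was 2.11, against 0.62 in saline animals. The difference was -0.39 ± 0.77 (SE), or -0.91 with its highest animal left out and 0.22 with its lowest left out. USP18 was at 3.26, 4.26 and 6.17 in stem cell animals, against 3.36, 4.33 and 5.07 in saline animals, a difference of 0.20 ± 0.41, and -0.070 without stem cells replicate 5.

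**Figure D3:**
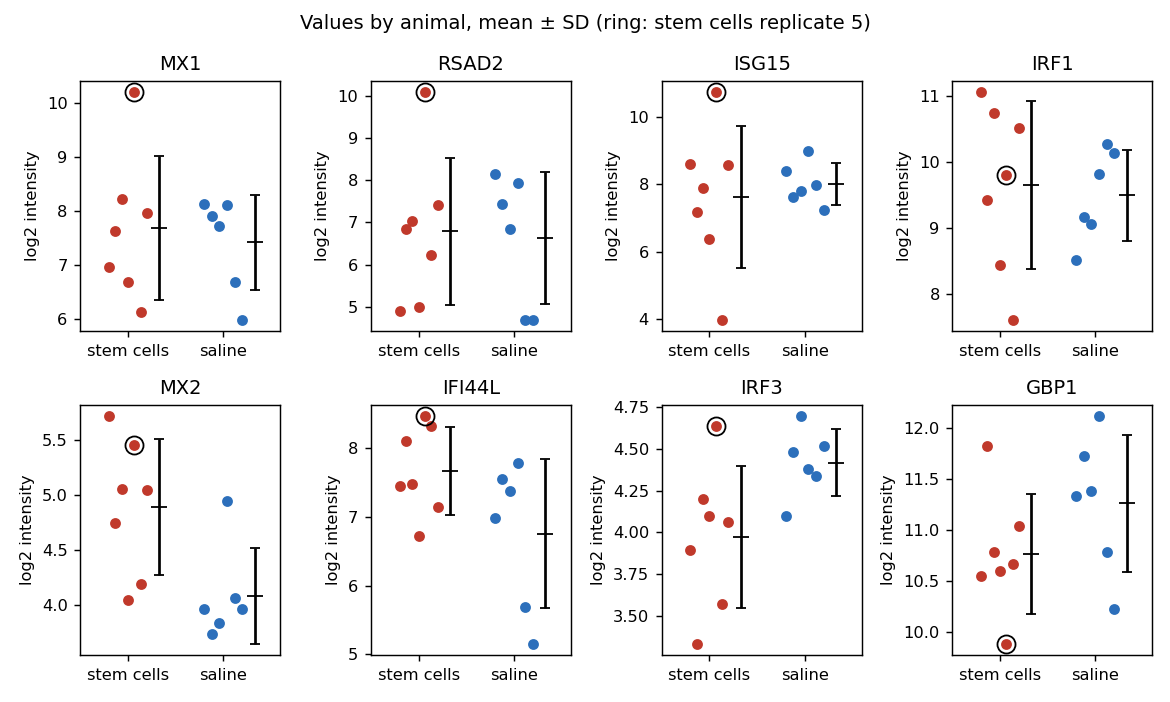
Each point is the log2 intensity of 1 animal, stem cells left and saline right, with mean ± SD beside it (n = 7 and 6); the ring marks stem cells replicate 5. That animal tops MX1, RSAD2 and ISG15 but not IRF1, and has the lowest GBP1 value of all 13.

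Of the 5 STAT and IRF factors in the set, 4 were tested. IRF3, the factor that sensors activate to start interferon production, had a lowest, median and highest log2 intensity of 3.34, 4.06 and 4.64 in stem cell animals, against 4.10, 4.43 and 4.69 in saline animals. Below every saline animal lay 4 stem cell animals, and stem cells replicate 5 was the one above the saline mean. The difference was -0.45 ± 0.18 (SE), unadjusted p of 0.0259, adjusted p of 0.43 (limma) and exact permutation p of 0.039. Leaving out stem cells replicate 5 gave -0.56, with an unadjusted p of 0.0034 (limma), and leaving out stem cells replicate 2 gave -0.34. The probe set was dim, at a mean of 4.18 over a filter level of 3.36.

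IRF1, the factor of the interferon gamma arm, was at 7.61, 9.79 and 11.05 (lowest, median, highest) in stem cell animals, against 8.51, 9.49 and 10.26 in saline animals. The stem cell animals lay on both sides of the saline range, 3 above it and 2 below it. Stem cells replicate 5 stood at the median of all animals. The difference was 0.16 ± 0.50 (SE), with a 95% interval from -0.91 to 1.23, and its sign turned when stem cells replicate 1 (-0.074), stem cells replicate 3 (-0.022) or saline replicate 1 (-0.037) was left out. Leaving out stem cells replicate 5 gave 0.14.

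STAT2 and IRF9, the partners that carry the type I interferon signal to the nucleus, had differences of 0.03 ± 0.26 and -0.14 ± 0.23 (SE). Without stem cells replicate 5 they were -0.085 for STAT2 and -0.24 for IRF9. STAT2 was at 3.54, 4.22 and 4.91 in stem cell animals, against 3.23, 4.28 and 4.85 in saline animals. IRF9 was at 4.19, 4.52 and 5.12 in stem cell animals, against 3.92, 4.64 and 5.38 in saline animals. Stem cells replicate 5 had the highest value of its group in both. IRF7 read 2.67 to 3.49 in stem cell animals and 2.71 to 2.99 in saline animals, with stem cells replicate 5 again the highest, and was not tested.

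The guanylate-binding proteins, large GTPases that attack the membranes around pathogens, had negative differences. GBP1 had a lowest, median and highest log2 intensity of 9.89, 10.67 and 11.83 in stem cell animals, against 10.23, 11.36 and 12.12 in saline animals. The saline mean lay above 6 of the 7 stem cell animals, and the lowest of all was stem cells replicate 5. The difference was -0.50 ± 0.31 (SE), adjusted p of 0.577 (limma), with -0.24 ± 0.32 and -0.75 ± 0.42 in its other probe sets. It was -0.33 without saline replicate 4, the animal with the highest value, and -0.35 without stem cells replicate 5. It was -0.67 without stem cells replicate 2 and -0.70 without saline replicate 6, with unadjusted p of 0.0302 and 0.0262 (limma).

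GBP2 was at 6.07, 7.08 and 8.50 in stem cell animals, against 6.48, 7.90 and 9.18 in saline animals. Again 6 of 7 stem cell animals had less than the saline mean. The difference was -0.66 ± 0.44 (SE), adjusted p of 0.596 (limma), and -0.38 without saline replicate 4. Leaving out stem cells replicate 5 gave -0.66, stem cells replicate 2 gave -0.89 and saline replicate 6 gave -0.92, the last 2 with unadjusted p of 0.047 and 0.0457 (limma). GBP1 and GBP2 are close relatives, and cross-hybridisation between them was not tested. The difference between the antiviral genes and the GBP genes in their response was not tested.

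Macrophages and lymphocytes are rich in several of these genes. Of the 11 macrophage and monocyte markers measured, out of 18 listed, 10 had a negative difference and 1 a positive one, against 52.8% positive among all probe sets, and 0 passed the adjusted threshold. AIF1 (-0.65 ± 0.29), TYROBP (-0.76 ± 0.30) and ITGB2 (-0.44 ± 0.19, SE) were lower at an unadjusted p under 0.05, 3 of 11 against 5.15% of all probe sets. All 11 markers together averaged 5.90 to 6.99 in stem cell animals, with a median of 6.35, and 6.26 to 7.19 in saline animals, with a median of 6.71. In stem cells replicate 5 they averaged 6.25. ITGAM and MARCO lay under the filter level. Of 19 T and NK cell markers 5 were measured, averaging 3.33 to 4.12 in stem cell animals and 3.55 to 4.25 in saline animals, and the defining markers CD3D, CD3E, CD3G and LCK lay under the filter level. Of 10 B and plasma cell markers 2 were measured, averaging 5.85 to 7.42 in stem cell animals and 6.17 to 6.84 in saline animals. The 1 neutrophil marker measured of 8 was at 4.31 to 9.92 in stem cell animals and 5.37 to 10.49 in saline animals. None of 5 plasmacytoid dendritic cell markers was measured. The part of cell makeup in the differences of the GBP genes was not tested.

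Across animals, many of the genes followed MX1. Over 13 animals Pearson's r with MX1 was above 0.7 in 10 of the other 20 genes (50%), against 0.563% of all probe sets tested. Of 20 relations computed, 11 passed at a Benjamini-Hochberg adjusted p of 0.05 (permutation test, two-sided, 100000 resamples), and 9 of the 11 also by Spearman's rho. XAF1 had r of 0.94 and rho of 0.86 (permutation adjusted p of 0.000467 and 0.0027), DDX58 r of 0.92 and rho of 0.88 (0.0004 and 0.0017), and RSAD2 r of 0.91 and rho of 0.89 (0.0006 and 0.0017). Next came IFIT3 at r of 0.87, OAS1 at 0.87, USP18 at 0.82, ISG15 and EIF2AK2 at 0.77, IRF9 at 0.75, STAT2 at 0.72 and IFIT1 at 0.65.

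Leaving out the 2 animals farthest from the median of MX1, stem cells replicate 5 and saline replicate 6, left 7 relations past the threshold. These were XAF1 (r of 0.90), OAS1 (0.84), DDX58 (0.82), RSAD2 (0.81), USP18 (0.77), IFIT3 (0.72) and ISG15 (0.70). The relations of EIF2AK2, STAT2 and IFIT1 missed the threshold without the 2 animals, with r of 0.40, 0.49 and 0.39. Without stem cells replicate 5 alone STAT2 had r of 0.65 and passed (permutation adjusted p of 0.0421), while EIF2AK2 (0.57) and IFIT1 (0.39) did not. Within the 7 stem cell animals r was 0.98 for EIF2AK2 and 0.91 for IFIT1, which passed (exact permutation adjusted p of 0.00794 and 0.0146). STAT2 did not pass there, at r of 0.67. Within the 6 saline animals r was 0.57 for EIF2AK2, 0.92 for STAT2 and -0.08 for IFIT1, and none passed. IRF9 also missed the threshold without the 2 animals (permutation adjusted p of 0.0603), but its r was 0.67, against 0.75 over all 13 animals. Without stem cells replicate 5 alone it was 0.75 and passed (permutation adjusted p of 0.0162). Without stem cells replicate 5 alone, 7 of 20 genes (35%) had r above 0.7, against 0.5% of all probe sets. Within the 7 stem cell animals r was positive in 19 of 20 genes and within the 6 saline animals in 17. By the exact permutation test after adjustment 10 and 2 passed. The shares of all probe sets within each group are not given here, so these within-group counts have no baseline.

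**Figure D4:**
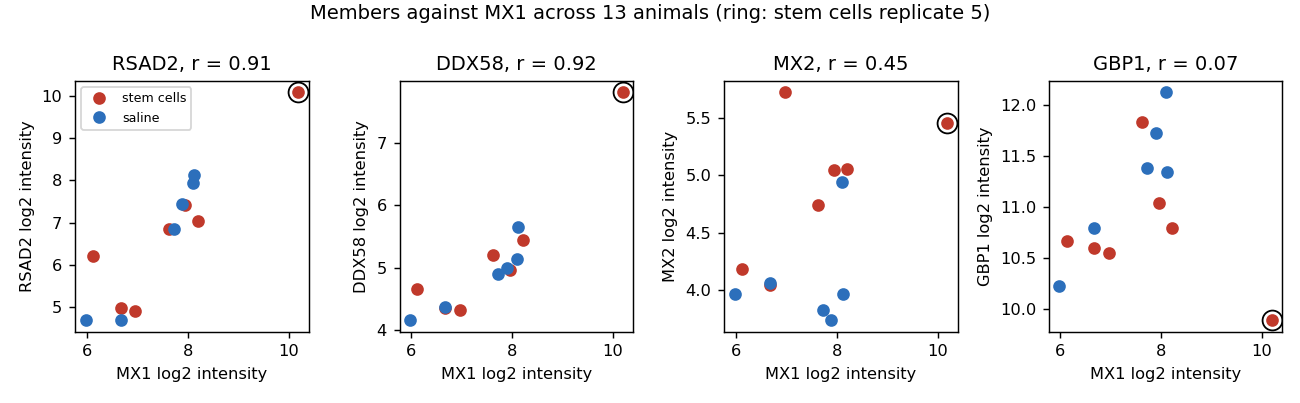
Log2 intensity of 4 genes (vertical axes) against that of MX1 (horizontal axes), 1 point per animal, with the ring on stem cells replicate 5. RSAD2 and DDX58 follow MX1 in both groups, and MX2 does not pass the test. GBP1 has r of 0.07 over all 13 animals, 0.72 without the ringed one and 0.63 without saline replicate 6 as well.

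The 3 genes with an unadjusted p under 0.05 between the groups did not pass this test. MX2 had r of 0.45 with MX1 and rho of 0.33 (permutation adjusted p of 0.156 and 0.343), although the genes are neighbours. IFI44L had r of 0.56 and rho of 0.41 (0.0843 and 0.249), and IRF3 r of 0.34 and rho of 0.24 (0.304 and 0.469). Within the saline animals IFI44L had r of 0.95 (exact permutation p of 0.0167, adjusted 0.0556). Within the stem cell animals its r was 0.36 (exact permutation p of 0.451, adjusted 0.475). None of the 3 genes passed after adjustment within either group.

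The r of GBP1 with MX1 changed with the animals used. Over all 13 its r with MX1 was 0.07 and its rho 0.27 (permutation adjusted p of 0.823 and 0.438). Without stem cells replicate 5 r was 0.72 (permutation adjusted p of 0.0277). Without saline replicate 6 as well it was 0.63 and missed the threshold (permutation adjusted p of 0.084). Within the saline animals r was 0.92 (exact permutation p of 0.0111, adjusted 0.0556), and within the stem cell animals -0.36 (exact permutation p of 0.396, adjusted 0.44). GBP2 had r of 0.30 and rho of 0.33 over all animals (permutation adjusted p of 0.356 and 0.343). Without stem cells replicate 5 its r was 0.55 (permutation adjusted p of 0.108). IRF1 had r of 0.19 and rho of 0.18 over all animals (permutation adjusted p of 0.574 and 0.594).

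Of the rest of the pathway, no gene passed the adjusted threshold. Over all probe sets tested, 52.8% of differences were positive, the median was 0.017, and 10.5% had an unadjusted p under 0.05 (limma). Among 11 measured receptors and JAK-STAT genes 4 differences were positive, the median was -0.018, and 0 had an unadjusted p under 0.05. The smallest p belonged to SOCS1, the feedback inhibitor of JAK kinases, at -0.40 ± 0.24 (SE), STAT3 at -0.33 ± 0.25, the receptor chain IFNGR1 at 0.25 ± 0.28 and IFNAR2 at -0.28 ± 0.38. Among 9 genes of sensing upstream of interferon 4 were positive, with TANK at 0.46 ± 0.25, IRAK1 at -0.30 ± 0.18, the kinase TBK1 at 0.25 ± 0.17 and the adaptor TICAM2 at -0.16 ± 0.13. Of the interferon genes and inducers 3 were measured, IL18 at -0.70 ± 0.56, IFNA1 at 0.10 ± 0.11 and IL15 at 0.06 ± 0.48, while IFNB1 and IFNG lay under the filter level.

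Among 19 other interferon-induced genes 5 were positive and 14 negative, against 52.8% positive among all probe sets. Their median was -0.084, against 0.017 over all probe sets. MYD88 is counted both here and in the list of sensing upstream of interferon. An unadjusted p under 0.05 was found for 2 of the 19, both lower, a share equal to the 10.5% of all probe sets in either direction (5.15% lower). PSMB8, a subunit of the immunoproteasome that cuts peptides for antigen presentation, had a lowest, median and highest log2 intensity of 3.99, 4.67 and 4.85 in stem cell animals, against 4.15, 5.18 and 5.51 in saline animals. The difference was -0.56 ± 0.22 (SE), adjusted p of 0.423 (limma), and the saline mean lay above all 7 stem cell animals. PSME2, of the proteasome activator, was at -0.39 ± 0.18, PSMB10 at -0.73 ± 0.35 and CIITA, the regulator of class II antigen presentation, at -0.15 ± 0.098.

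Stem cells replicate 5 was high in some genes of the pathway and low in others. Of the 19 other interferon-induced genes it had the highest value in 4, against 6.5% of all probe sets tested. It lay above the median of the 13 animals in 13 of the 19. PARP12, an antiviral ADP-ribosyltransferase, was 2.88 above that median and TNFSF10, the death ligand TRAIL, 1.89 above it. In contrast 1 of the 11 receptor and JAK-STAT genes lay above the median there, SOCS1, by 0.36. The differences from the median were -1.27 for IFNGR1, -1.22 for JAK2 and -0.96 for STAT3, and the list mean of 6.78 was the lowest of the 13 animals. Of the 9 genes of sensing upstream of interferon 2 lay above the median there. These were ZBP1, by 1.04 and the highest of the 13 animals, and MYD88, by 0.50. The pathogen receptor TLR4 was at -1.84. Of the 3 interferon genes and inducers 0 lay above the median, with IL15 at -1.45. The share of all probe sets above the median in this animal is not given here, so the counts above the median have no baseline.

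**Figure D5:**
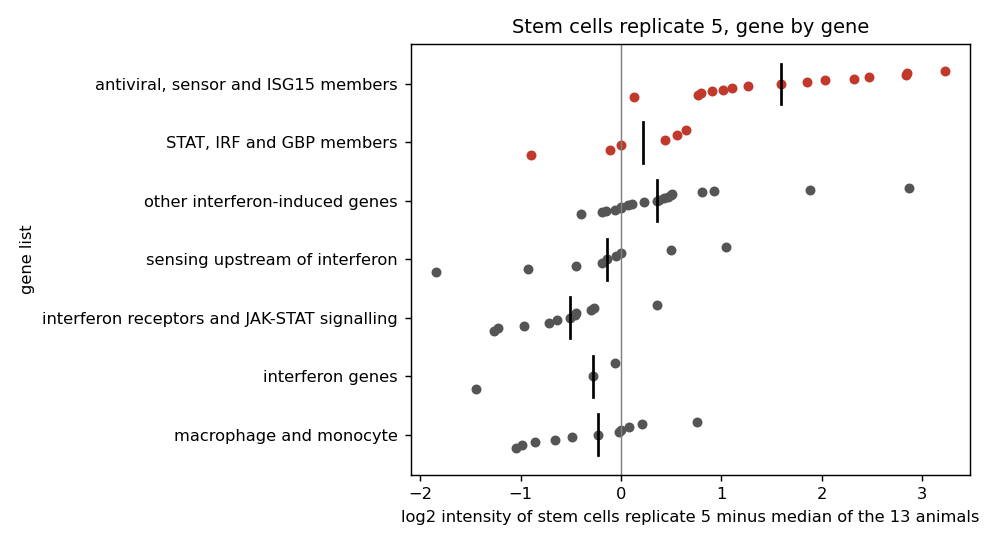
Each point is 1 gene, placed at the log2 intensity of stem cells replicate 5 minus the median of the 13 animals; rows are gene lists and bars their medians. The antiviral, sensor and ISG15 genes all lie above 0, whereas the receptor and JAK-STAT genes lie below it except for SOCS1.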

How the data were processed

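The authors deposited 1 linear intensity per probe set and array, made with GCRMA per the submitters' processing notes. Its version and settings are not given in the labels. GCRMA makes the arrays' distributions alike, so a shift shared by most genes cannot be seen. Deposited intensities were put on the log2 scale, and 124 control probe sets of 24123 were left out of the tests. Probe sets with a mean log2 above the 40th percentile, 3.36, were tested (14399). The highest mean of 17 tag controls, which have no pig target, was 2.58. The comparison used limma 3.58.1 under R 4.3.3 (lmFit, eBayes with an intensity trend), with Benjamini-Hochberg adjustment over all probe sets and a threshold of 0.05, and the fit was tested on simulated data. Correlations were computed with numpy 2.4.6. Gene symbols come from the platform annotation and can be old, and no gene was named from a probe set with more than 1 symbol.

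The members, their role groups and the other lists were chosen with earlier results of these data known. Named genes were all members and, of each pathway list, up to 4 with the smallest p. TNFSF10, PARP12, JAK2, TLR4, ZBP1, MYD88, AIF1, TYROBP, ITGB2, NPPB and MYH7 and the account of stem cells replicate 5 were chosen after values were seen. The labels do not state that a shared replicate number pairs animals. The design text counts 7 and 6 randomized pigs, as many as arrays, so each array was taken as 1 animal. Alternatives were other filters, normalizations, variance models, weights and probe set choices, a floor, a replicate block, an exact permutation test and leaving out each animal; for the correlations with MX1 they were added after the data were seen.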

Additional observations from a re-analysis of the deposited data

Results flagged for a closer look

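In groups of 6 or 7 animals, the highest or lowest value was set against the gap to its neighbour (Dixon's criterion), which chance passes in about 1 group in 20. Of 42 groups, 2 for each of 21 genes, 6 passed. Of the 6, 4 were stem cells replicate 5, at a log2 intensity of 7.81 for DDX58 (next highest of its group 5.44), 9.11 for EIF2AK2 (7.64), 5.77 for XAF1 (4.29) and 5.19 for IFI35 (4.43). Saline replicate 4 was at 4.94 for MX2 (next highest 4.06), and saline replicate 2 at 5.61 for IFI35 (4.68). Without saline replicate 4 the difference of MX2 was 0.98 instead of 0.81. The cause of these values was not tested.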

How the results depend on the processing

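Under every alternative run, 0 of the tested interferon-stimulated genes passed an adjusted p of 0.05, at 0.10 also 0. Over all probe sets the count was 0 in each, except 1 without saline replicate 5 (0 to 1 with 1 animal left out). The median difference of the set ranged from -0.156 to 0.362 with 1 animal left out, and that of the MX, IFI, IFIT and OAS genes from 0.2 to 0.522. Under the other alternatives these medians stayed positive. With array weights RSAD2 was at -0.024 and STAT2 at -0.055, and in its second brightest probe set IFIT2 was at -0.048. Across 11 alternatives that kept all animals, IRF1 ranged from 0.148 to 0.691, GBP1 from -0.747 to -0.458 and GBP2 from -0.865 to -0.663. With 1 animal left out, MX1 ranged from -0.156 to 0.522, RSAD2 from -0.387 to 0.475, XAF1 from -0.168 to 0.195, DDX58 from -0.045 to 0.536, USP18 from -0.070 to 0.415, STAT2 from -0.160 to 0.164, IRF1 from -0.074 to 0.4997, ISG15 from -0.908 to 0.217, IFI30 from -0.220 to 0.061 and IRF9 from -0.280 to 0.013. The cause was not tested. The count of genes that passed with MX1 was 7 without the 2 animals farthest from its median, and 10 to 13 with 1 animal left out. With the replicate block 0 genes passed, the median was 0.057 and 2 genes had an unadjusted p under 0.05. The block pairs numbers only: same-numbered animals correlated at -0.266 to 0.237 in their deviations from the group means, and 1 of 6 stem cell animals matched its own number best. Precision is limited by 7 and 6 arrays, and dim probe sets such as IRF3 lie near the filter level.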

Other observations

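The named genes outside the set whose log2 intensity followed MX1 most closely over the 13 animals were looked up after the values were seen, so no test is given. ZBP1, a sensor of left-handed nucleic acids, had Pearson's r of 0.90, and 0.79 without stem cells replicate 5. The gene named ISG12(A) had 0.88, and 0.80 without that animal. PARP12 had 0.84 and 0.64, and CMTR1, a cap methyltransferase of messenger RNA, 0.83 and 0.78. Their differences between the groups were -0.05 ± 0.23, -0.40 ± 0.57, 0.40 ± 0.49 and 0.04 ± 0.19 (SE). ISG12(A) read 11.63 in stem cells replicate 5, against a highest value of 10.53 in the other 12 animals.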
